A study of Mus musculus with 2 samples.

Results

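The mRNAs of 32 genes that feed and run the tricarboxylic acid cycle and mitochondrial fatty acid oxidation were described in single cells of adductor muscle, a thigh muscle made ischemic by tying off the femoral artery. They were taken by symbol from a fixed list, chosen with earlier results of these data known, and all 32 were among the 32574 genes of the files. Cells came from WT control littermates and from Apoa1bp-/- mice, called knockout here, both collected 7 days after the ligation. Apoa1bp is now named Naxe and encodes AIBP, an epimerase that repairs damaged NAD(P)H and also binds apolipoprotein A-I. Both groups had the same surgery, on 4 mice per genotype, and no muscle without ligation was analysed here. Each genotype is 1 library. The sources used here do not say if that library pools the 4 mice. No difference between genotypes therefore has a replicate check, and no test was made. The 95% intervals printed with values are exact and cover only the error of counting.

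Muscle and its vessels make most of their ATP in mitochondria. Pyruvate enters through the pyruvate dehydrogenase complex, and long-chain fatty acids enter as carnitine esters through the carnitine palmitoyltransferases and the carnitine-acylcarnitine carrier. Beta-oxidation then shortens the acyl chain in rounds of dehydrogenation, hydration, dehydrogenation and thiolysis. Both routes end in acetyl-CoA, which the cycle oxidises to carbon dioxide while loading NADH and FADH2 for the respiratory chain. Electrons from the acyl-CoA dehydrogenases reach that chain through the electron transfer flavoprotein and its dehydrogenase. Endothelial cells rely mostly on glycolysis for ATP but use fatty acid carbon for nucleotide synthesis and redox balance, while regenerating muscle builds up its oxidative enzymes as myoblasts differentiate.

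Filters left 12285 WT cells and 8515 knockout cells. They held medians of 4161 and 6559 UMIs, where a UMI is 1 tagged mRNA molecule. The libraries shared 43 cell barcodes. The targeted gene, Naxe, was counted 3319 times in WT and 0 times in knockout cells. A cell was put in a class when it held enough of that class's 5 to 8 marker genes (3 or 4 of them) and no other lineage passed, which placed 75.9% of WT and 74.0% of knockout cells. Barcodes that passed for 2 lineages, 14.2% and 16.1%, were left out. Of 15 classes, 11 held at least 50 cells in each library and were described, and 4 with at least 200 cells were used for counts of genes. These 4 were endothelial cells (264 WT and 279 knockout cells), fibroblasts (3364 and 1239), macrophages (4281 and 2575) and the satellite cell/myoblast class (509 and 687), the progenitors of new muscle fibres. Levels are UMIs of a gene per 1000000 UMIs of its class (CPM), so they are shares of a class's mRNA, and the amount of mRNA per cell is not measured by them. For each of these 4 classes, 4 marker genes were kept aside as a check. They summed to 3445 CPM in WT and 2790 CPM in knockout endothelial cells and to 5661 and 4908 CPM in fibroblasts. Macrophages had 18805 and 19715 CPM of theirs, and the satellite cell/myoblast class 1234 and 1044 CPM. All were detected in both libraries, but any UMI in a class counts as detection. Their levels in other classes were not compared. Median UMIs per cell differed between the libraries in all 4 classes, from 2500 WT against 6943 knockout in endothelial cells to 4236 against 6715 in macrophages.

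The 250 bases before the start of 4 genes are shown. Hadhb was chosen because it lies head to head with Hadha, which encodes its partner subunit, Acadm because it carried a searched motif, and Mdh2 and Ogdh because they went in opposite directions between the libraries. All are from RefSeq on mouse GRCm38.p6 and run 5′ to 3′ on the gene's own strand, and 28 of the 32 genes had an entry. Hadhb lies at chr5:30155003-30155252, plus strand. The window of Hadha, read from the other strand, covers 228 of the same bases, and the starts are 272 bases apart. Acadm lies at chr3:153944644-153944893, minus strand, with capitals marking the motif. Mdh2 lies at chr5:135778399-135778648, plus strand. Ogdh lies at chr11:6291347-6291596, plus strand, before the first of its 6 listed starts.
Hadhb: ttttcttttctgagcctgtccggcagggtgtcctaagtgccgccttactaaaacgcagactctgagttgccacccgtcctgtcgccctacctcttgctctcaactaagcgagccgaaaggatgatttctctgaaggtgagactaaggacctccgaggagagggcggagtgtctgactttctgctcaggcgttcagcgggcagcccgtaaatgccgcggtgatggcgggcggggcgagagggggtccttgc
Acadm: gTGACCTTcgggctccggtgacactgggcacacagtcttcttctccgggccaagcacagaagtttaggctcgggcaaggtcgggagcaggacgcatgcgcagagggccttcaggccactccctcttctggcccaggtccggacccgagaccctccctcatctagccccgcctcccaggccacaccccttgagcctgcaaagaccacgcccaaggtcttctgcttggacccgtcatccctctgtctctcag
Mdh2: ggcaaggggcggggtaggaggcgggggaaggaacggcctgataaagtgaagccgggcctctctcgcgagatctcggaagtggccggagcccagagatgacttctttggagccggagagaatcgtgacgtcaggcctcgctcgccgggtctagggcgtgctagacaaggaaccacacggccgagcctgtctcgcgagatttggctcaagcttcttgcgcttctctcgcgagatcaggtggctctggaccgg
Ogdh: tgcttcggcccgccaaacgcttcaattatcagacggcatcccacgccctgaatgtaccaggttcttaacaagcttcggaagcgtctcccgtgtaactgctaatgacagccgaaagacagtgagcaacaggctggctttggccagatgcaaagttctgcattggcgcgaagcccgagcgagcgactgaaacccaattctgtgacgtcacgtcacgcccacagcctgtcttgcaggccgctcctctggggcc
Windows in that table run from 250 bases before to 50 after a start, and they were searched on both strands. The motif of the estrogen-related receptors, TCAAGGTCA, was in 139 of 32851 windows (0.423%), and that of the PPARs, a repeat of AGGTCA with 1 base between, in 13 (0.0396%). Neither was found in the 33 windows of the matched genes. Their shared core with 1 base before it, AAGGTCA, overlaps both and was added after the other searches. It was in 1550 windows (4.72%), among them those of Acadm and Ogdh. In Acadm it starts 249 bases before the gene's start and reads TGACCTT on the printed strand. The Ogdh match did not lie within the 250 bases before any of its 6 starts, and is not in the stretch shown. It reaches into the 50 bases after a start. The 28 genes were rich in G and C before their starts, with a median of 59.0% (43.6 to 68.0%) against 52.4% over all windows.

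Muscle fibres held the most mRNA of the 32 genes together and neutrophils the least. In the WT library the sum was 3868 CPM in muscle fibres, 2719 CPM in committed myocytes, the cells about to fuse into fibres, 2346 CPM in pericytes and smooth muscle cells and 2090 CPM in the satellite cell/myoblast class. Fibroblasts had 1531 CPM, NK cells 1523 CPM, endothelial cells 1495 CPM, T cells 1475 CPM and macrophages 1465 CPM, and among these 5 classes the intervals of fibroblasts and macrophages alone were apart. Monocytes were at 1758 CPM, but 39 of their 61 WT cells held just the number of markers needed, and their level was 1362 CPM with 1 more marker required, 1383 CPM after thinning each cell to 1000 UMIs and 1375 CPM without cycling cells. Neutrophils, which live mainly from glycolysis, had 909 CPM. In the knockout library fibres (3384 CPM) and committed myocytes (3344 CPM) overlapped, and neutrophils were again last with 729 CPM. The fibre class held small barcodes, with medians of 1156 and 1114 UMIs, and its 8 marker genes alone made up 76724 and 97985 CPM.

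**Figure D1:**
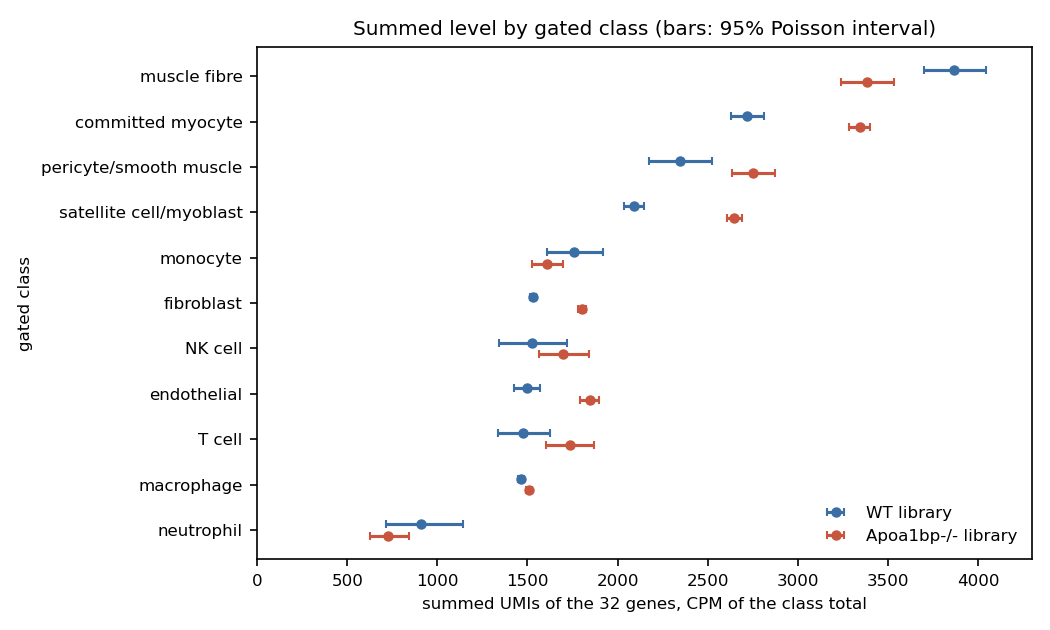
Summed level of the 32 genes in CPM of each class total (x axis) for 11 gated classes (y axis), with 1 point per library and its 95% Poisson interval. The knockout library sits to the right in the endothelial, fibroblast, satellite cell/myoblast and committed myocyte classes and to the left in muscle fibres (3868 against 3384 CPM).

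Single genes followed this order only in part. Of 31 genes, all but Cpt1b, 19 had their highest level in muscle fibres in WT and 10 in the knockout library, but the leading class was clear of the next by its interval for only 4 of these 19 and 2 of these 10. Idh3a and Idh3b, subunits of the NAD-dependent isocitrate dehydrogenase, were the genes that led clearly in fibres in both libraries. Idh3a had 258 CPM in fibres of WT and 238 CPM in those of the knockout, against 76.8 and 125 CPM in committed myocytes, the next class. Idh2, the NADP-dependent mitochondrial isocitrate dehydrogenase, was instead highest in the myogenic precursors. It had 201 CPM in committed myocytes and 166 CPM in the satellite cell/myoblast class of WT, whose intervals overlapped, and 223 and 288 CPM in the knockout library, whose intervals did not. Its lowest value was in NK cells, at 5.86 and 8.41 CPM from 1 and 3 UMIs, with intervals that overlapped those of neutrophils and T cells. Ogdh had one of the flattest profiles, from 141 CPM in pericytes and smooth muscle cells to 49.8 CPM in neutrophils of WT. Neutrophils had the lowest level of 16 genes in WT and 26 in the knockout library. Whether the lowest class was clear of the next by its interval was not tested. These last places rest on few counts, because the neutrophil class held 73 WT and 184 knockout UMIs of all listed genes together. In WT neutrophils, for example, Fh1 had 0 UMIs, with an interval that reaches 45.9 CPM. The leading class was the same in both libraries for 14 genes.

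Cpt1b, the muscle form of carnitine palmitoyltransferase, was next to absent. It had 4 UMIs in all kept WT cells and 1 in all kept knockout cells, and 0 in the muscle fibre class of both libraries, where the interval of a count of 0 reaches 7.16 and 6.0 CPM. GENCODE exons of Cpt1b share 81.4% of their bases with Gm44502, a gene on the same strand, which had 0 UMIs in all kept cells of both libraries. Its neighbour Chkb had 1240 and 1012 UMIs. Whether reads in the shared exons were dropped in counting was not tested, so the low count cannot be read as a low level of the mRNA. The liver form Cpt1a was measured in each of the 11 classes and was highest in monocytes, at 44.6 and 30.7 CPM, without being clear of the next class.

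**Figure D2:**
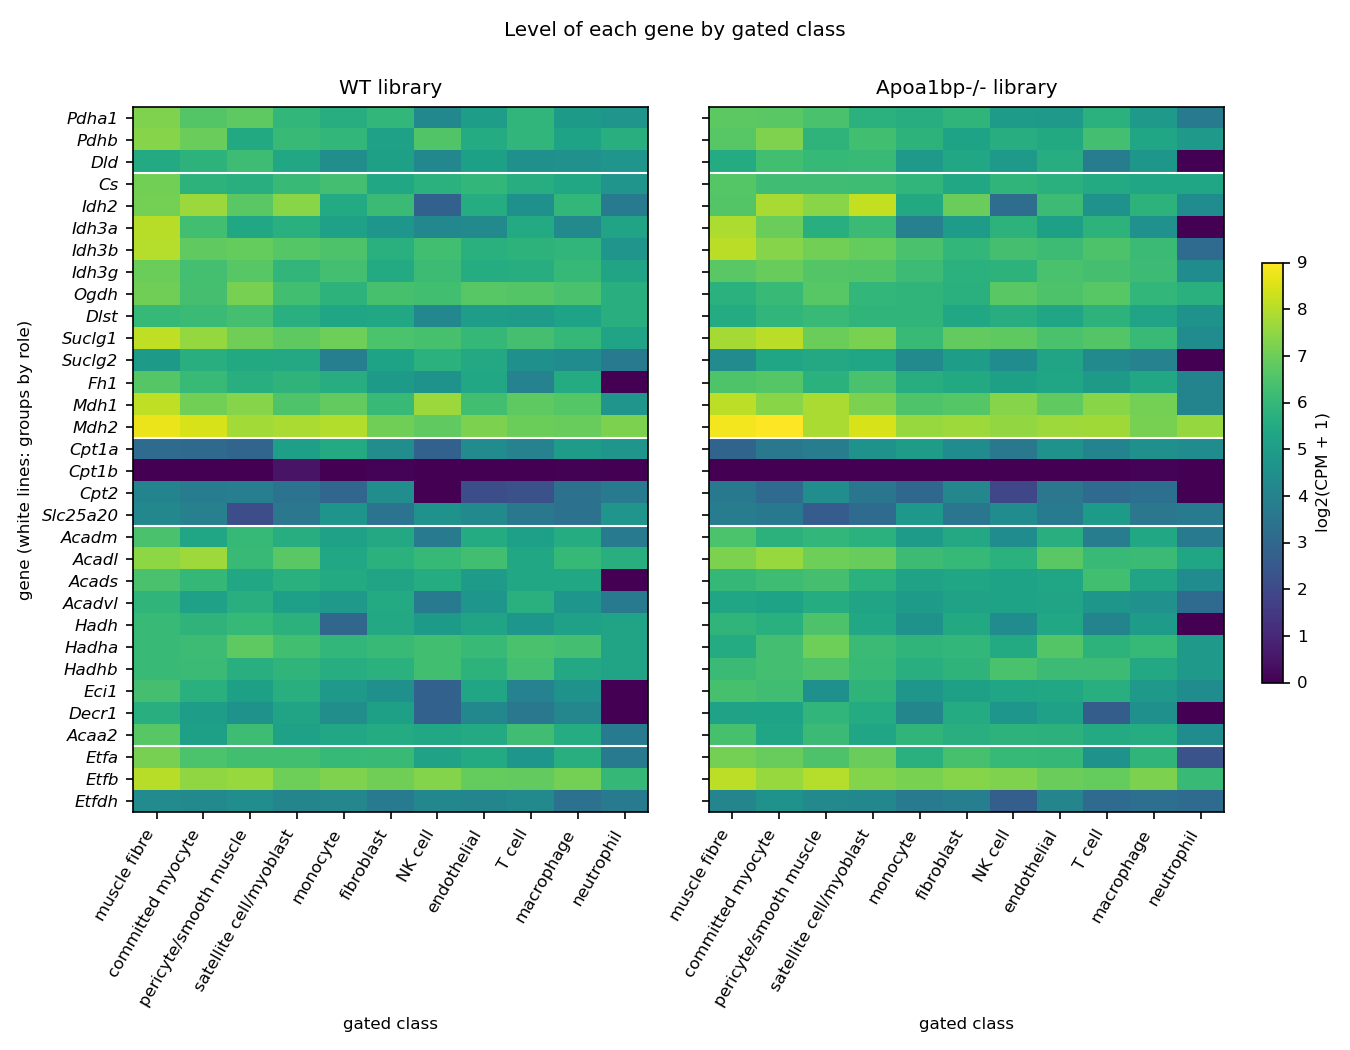
Level of each of the 32 genes (rows, in order of role) in 11 gated classes (columns), as log2(CPM + 1), for the WT library on the left and the knockout library on the right. Mdh2 is bright in every class, Idh3a and Idh3b stand out in muscle fibres, and Cpt1b is dark throughout.

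Between the libraries, the 32 genes together had a larger share of mRNA in the knockout in 3 of the 4 large classes. The sum was 2090 CPM in WT and 2649 CPM in knockout cells of the satellite cell/myoblast class (ratio of knockout over WT 1.27, 1.23 to 1.31). It was 1495 and 1845 CPM in endothelial cells (1.23, 1.17 to 1.30) and 1531 and 1803 CPM in fibroblasts (1.18, 1.16 to 1.20). In macrophages the levels were close, at 1465 and 1511 CPM (1.03, 1.02 to 1.05), and the ratio was 0.986 with every cell thinned to 1000 UMIs. Over the alternative settings the ratio stayed between 1.19 and 1.40 in the satellite cell/myoblast class, 1.14 and 1.27 in endothelial cells and 1.09 and 1.21 in fibroblasts.

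More of the 32 genes were higher in the knockout than lower in 3 of the 4 large classes. A gene was measured when it had at least 5 CPM in either library, and was counted as higher with a ratio of at least 1.25 and as lower with at most 0.8. Cpt1b fell below this limit, so 31 genes were counted in each class. In endothelial cells 16 of 31 were higher and 1 was lower, where 19.8% of all measured genes were higher and 35.8% lower. Their median log2 ratio was 0.36, against -0.15 over all genes. With every cell thinned to 1000 UMIs, 12 were higher and 6 lower (31.3% and 39.9% of all genes), and the median was 0.16, so the share of higher genes lay closer to the background. In the satellite cell/myoblast class 10 were higher and 3 lower (21.3% and 28.2% of all genes), with a median of 0.19 against -0.06. In fibroblasts 9 were higher and 2 lower (17.7% and 30.9%), with a median of 0.12 against -0.10. In macrophages 2 were higher and 3 lower (10.3% and 29.3%), with a median of 0.01 against -0.14, so the share of higher genes there was below the background. Dividing all ratios by that of the median expressed gene, which lay 0.12 below 0 on the log2 scale in endothelial cells, 0.09 in fibroblasts, 0.11 in macrophages and 0.02 in the satellite cell/myoblast class, gave 13 higher and 1 lower in fibroblasts (22.6% and 24.1% of all genes) and 9 higher and 3 lower in macrophages (16.4% and 19.7%), so that in macrophages the share of higher genes then lay above the background. With limits of 50% higher and 33% lower, 5 genes were higher in endothelial cells (9.40% of all genes) and 6 in the satellite cell/myoblast class (9.78%). The interval of the ratio lay above 1 for 12 genes and below it for 0 in endothelial cells (8.38% and 18.1% of all genes), for 12 and 3 in the satellite cell/myoblast class (17.2% and 20%), for 14 and 5 in fibroblasts (25.1% and 39.5%) and for 11 and 9 in macrophages (20.3% and 43.3%).

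**Figure D3:**
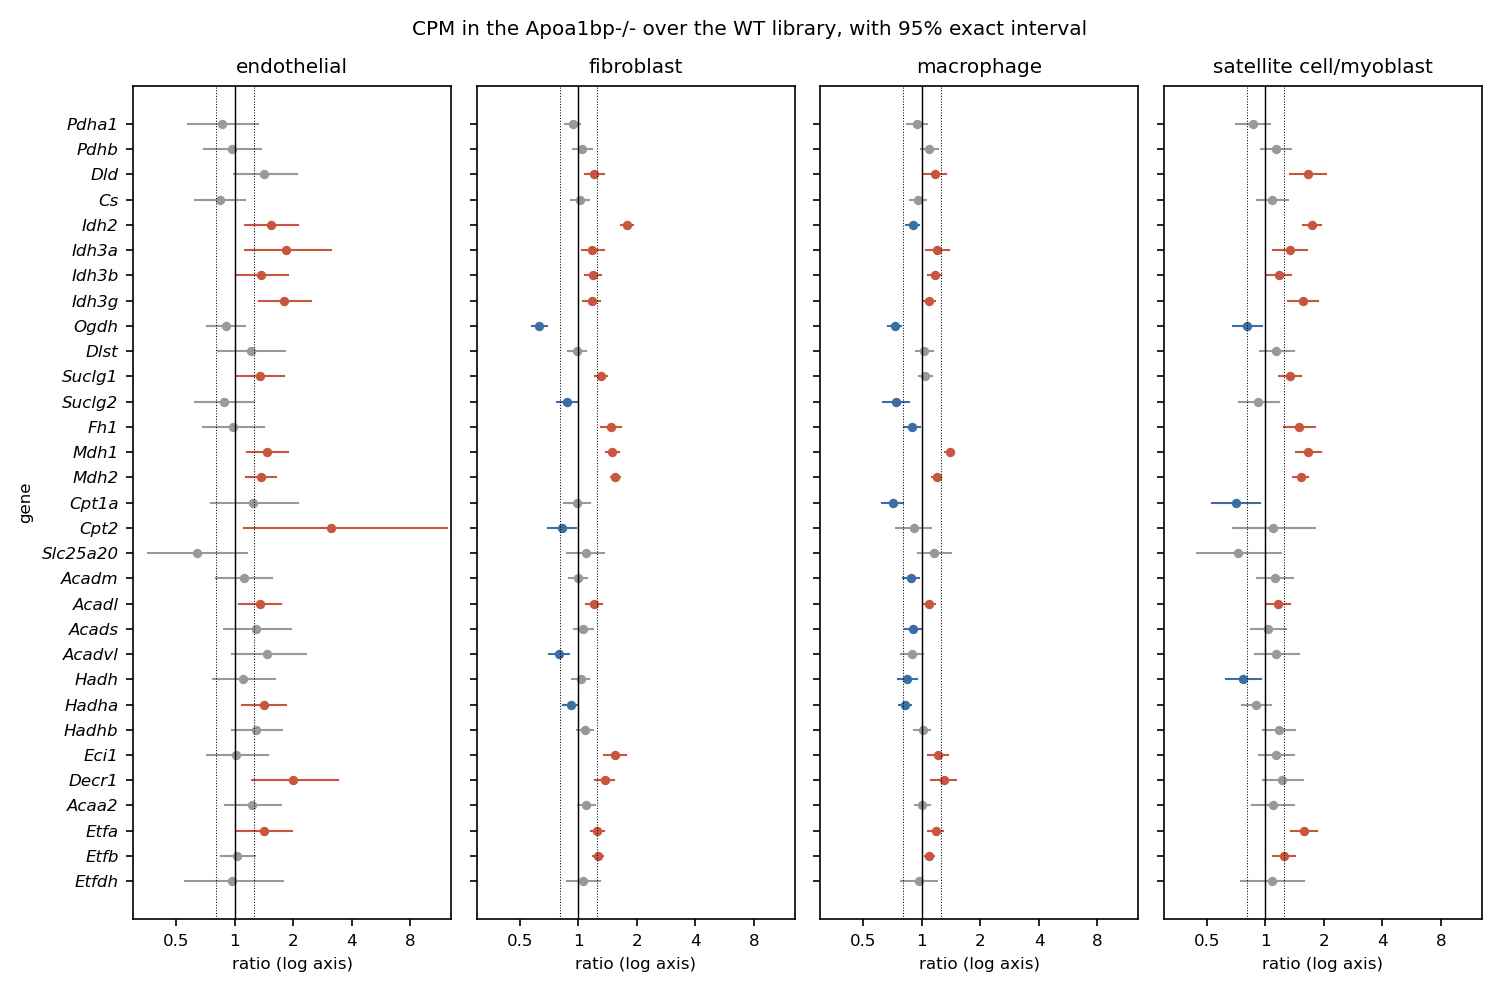
Ratio of CPM, knockout over WT (log axis), for the 31 measured genes in the 4 large classes, with the exact 95% interval and dotted lines at 0.8 and 1.25. Red points have an interval above 1 and blue points one below 1. Mdh1 and Mdh2 are red in all 4 panels, and Ogdh is blue in 3 of them.

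The 3 listed genes of the pyruvate dehydrogenase complex together differed little between the libraries in 3 of the 4 large classes. Other subunits of the complex are not in their sum. The 3 genes summed to 111 and 119 CPM in endothelial cells (ratio 1.07, 0.873 to 1.33), 130 and 135 CPM in fibroblasts (1.04) and 87.2 and 92.7 CPM in macrophages (1.06). In the satellite cell/myoblast class the sum was 170 and 197 CPM (1.16, 1.04 to 1.30). Pdha1, the catalytic alpha subunit, had 61.9 CPM in fibroblasts of WT and 57.9 CPM in those of the knockout, and Pdhb, its beta subunit, at 34.7 and 36.5 CPM. Dld, the lipoamide dehydrogenase that this complex shares with the oxoglutarate dehydrogenase complex, was the exception. It had 41.1 CPM in WT and 67.9 CPM in knockout cells of the satellite cell/myoblast class (ratio 1.65, 1.33 to 2.06), 33.9 and 40.9 CPM in fibroblasts (1.21) and 22.2 and 26.0 CPM in macrophages (1.17).

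The cycle itself carried most of the difference in the satellite cell/myoblast class. Its 12 genes summed to 1102 CPM there in WT and to 1531 CPM in the knockout (ratio 1.39, 1.33 to 1.45), with 7 higher and 0 lower. Fibroblasts had 703 and 889 CPM (1.26, 1.23 to 1.30; 5 higher, 1 lower) and endothelial cells 727 and 914 CPM (1.26, 1.16 to 1.36; 7 higher, 0 lower). Macrophages had 712 and 755 CPM (1.06, 1.04 to 1.09; 1 higher, 2 lower). Of all measured genes, 21.3% were higher and 28.2% lower in the satellite cell/myoblast class and 17.7% and 30.9% in fibroblasts. In endothelial cells these shares were 19.8% and 35.8%, and in macrophages 10.3% and 29.3%. At the entry of the cycle, Cs, citrate synthase, was at similar levels in both libraries, with 67.1 and 72.8 CPM in the satellite cell/myoblast class (1.08, 0.908 to 1.30) and 40.2 and 41.0 CPM in fibroblasts (1.02, 0.913 to 1.14).

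The isocitrate dehydrogenases differed by cell type. Idh2 had 166 CPM in the satellite cell/myoblast class of WT and 288 CPM in that of the knockout (ratio 1.73, 1.56 to 1.93) and at 69.2 and 123 CPM in fibroblasts (1.77, 1.65 to 1.91). In macrophages it was at 61.7 and 55.3 CPM (0.896, 0.827 to 0.971). The enzyme supplies mitochondrial NADPH. After thinning every cell to 1000 UMIs, 12.9% of WT cells (10.1 to 16.2%) and 27.1% of knockout cells (23.8 to 30.6%) of the satellite cell/myoblast class had an Idh2 UMI, and 5.36% and 11.9% of fibroblasts. Unthinned shares were 46.4% and 82.7% in the satellite cell/myoblast class and 25.4% and 55.7% in fibroblasts. In neutrophils, the class with the lowest summed level, the thinned shares were 2.50% (1 of 40 cells) and 1.46% (2 of 137). In endothelial cells Idh2 had 46.9 and 71.7 CPM (1.53, 1.13 to 2.11), but its log2 ratio was 0.00 as a mean over cells.

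All 3 subunits of the NAD-dependent enzyme, Idh3a, Idh3b and Idh3g, had intervals above 1 in all 4 classes. Idh3g, a regulatory subunit, was at 46.9 and 84.1 CPM in endothelial cells (ratio 1.79, 1.33 to 2.46), 59.8 and 93.2 CPM in the satellite cell/myoblast class (1.56) and 44.6 and 52.1 CPM in fibroblasts (1.17). Idh3a, the catalytic subunit, was at 18.3 and 33.5 CPM in endothelial cells (1.84, 1.13 to 3.11) and at 18.6 and 22.4 CPM in macrophages (1.20). After thinning, both had log2 ratios above 0 in endothelial cells, 1.07 for Idh3a and 0.75 for Idh3g, whereas Idh3b had -0.21. Few thinned cells had a UMI: 3 of 232 WT and 8 of 269 knockout cells for Idh3a, and 10 and 20 for Idh3g. The intervals of these shares overlapped.

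Ogdh, the substrate-binding subunit of the oxoglutarate dehydrogenase complex, had intervals below 1 in fibroblasts, macrophages and the satellite cell/myoblast class, where the sum of the cycle genes had a ratio above 1. In fibroblasts its level was 81.7 CPM for WT against 51.5 CPM for the knockout (ratio 0.630, 0.575 to 0.688), macrophages had 83.5 and 60.5 CPM (0.724, 0.673 to 0.779) and the satellite cell/myoblast class 75.7 and 61.1 CPM (0.808, 0.678 to 0.965). Endothelial cells had 99.1 and 88.9 CPM (0.897, 0.715 to 1.13), with overlapping intervals. Among smaller classes it was at 130 and 52.1 CPM in muscle fibres (0.401, 0.254 to 0.619), where the cycle sum was lower as well, at 2214 and 1966 CPM (0.888, 0.819 to 0.964). The other subunits of the complex had higher ratios than Ogdh in the 4 large classes. Dlst, the succinyltransferase core, was at 41.1 and 40.4 CPM in fibroblasts (0.984) and 36.2 and 37.3 CPM in macrophages (1.03), and the values of Dld are given above. In muscle fibres Dlst was at 64.0 and 45.6 CPM (0.712, 0.414 to 1.21), which is past the lower limit too. Thinned shares of cells with an Ogdh UMI were 8.73% and 5.45% in fibroblasts and 8.24% and 5.99% in macrophages, against 34.8% and 39.2%, and 31.3% and 33.9%, before thinning. Neutrophils had 7.50% and 5.11% after thinning.

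Succinyl-CoA ligase and fumarase followed. Suclg1, the alpha subunit that both forms of the ligase use, was at 109 and 146 CPM in the satellite cell/myoblast class (ratio 1.34, 1.17 to 1.53) and 86.5 and 113 CPM in fibroblasts (1.31, 1.22 to 1.40). Its fibroblast log2 ratio was -0.01 in cells of 3000 to 10000 UMIs. Suclg2, the beta subunit of the GTP-forming ligase, was not higher in any of the 4 classes: it had 35.9 and 31.6 CPM in fibroblasts (0.879, 0.778 to 0.993) and 19.9 and 14.7 CPM in macrophages (0.736, 0.632 to 0.856). Fh1, fumarate hydratase, was at 57.4 and 85.3 CPM in the satellite cell/myoblast class (1.49, 1.24 to 1.79) and 29.1 and 42.7 CPM in fibroblasts (1.47, 1.30 to 1.65), but at 45.7 and 40.7 CPM in macrophages (0.890, 0.810 to 0.978). In fibroblasts of 3000 to 10000 UMIs its log2 ratio was 0.07 in place of 0.55.

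The malate dehydrogenases had ratios with intervals above 1 in all 4 classes. Mdh1 is the cytosolic enzyme of the malate-aspartate shuttle and Mdh2, whose upstream stretch is printed above, closes the cycle in mitochondria. Mdh1 was at 90.4 and 150 CPM in the satellite cell/myoblast class (ratio 1.66, 1.43 to 1.92), 65.5 and 97.6 CPM in fibroblasts (1.49, 1.38 to 1.61) and 98.9 and 138 CPM in macrophages (1.39, 1.32 to 1.47). It was the only gene of the list at least 25% higher in all 4 classes, with 75.6 and 111 CPM in endothelial cells (1.46, 1.15 to 1.88), where the log2 ratio was -0.06 in cells of 3000 to 10000 UMIs. Mdh2 was at 232 and 352 CPM in the satellite cell/myoblast class (1.52, 1.38 to 1.66), 133 and 206 CPM in fibroblasts (1.55, 1.47 to 1.64) and 150 and 204 CPM in endothelial cells (1.36, 1.14 to 1.62). In macrophages it was at 119 and 142 CPM (1.19, 1.13 to 1.26). In fibroblasts of 3000 to 10000 UMIs its log2 ratio was 0.23 in place of 0.63.

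The entry of long-chain acyl groups into mitochondria went the other way in macrophages and in the satellite cell/myoblast class. Its genes (Cpt1a, Cpt2, Slc25a20 and the nearly absent Cpt1b) summed to 49.7 and 41.5 CPM in macrophages (ratio 0.835, 0.761 to 0.915) and 53.6 and 41.4 CPM in the satellite cell/myoblast class (0.773, 0.626 to 0.957). Fibroblasts had 50.6 and 47.6 CPM (0.939, 0.850 to 1.04) and endothelial cells 40.9 and 46.2 CPM (1.13, 0.804 to 1.62), with overlapping intervals. Cpt1a, which makes the acylcarnitines and is the step that malonyl-CoA inhibits, was at 30.6 and 21.7 CPM in macrophages (0.709, 0.626 to 0.801) and 32.6 and 22.9 CPM in the satellite cell/myoblast class (0.704, 0.534 to 0.933). In fibroblasts it was at 20.3 CPM in WT, with a ratio of 0.982 (0.839 to 1.15). Cpt2, which turns acylcarnitines back into acyl-CoA inside mitochondria, was at 20.4 and 16.9 CPM in fibroblasts (0.828, 0.701 to 0.976). In endothelial cells it rested on 4 and 30 UMIs (3.14, 1.11 to 12.3), and its log2 ratio of 1.51 was 0.52 after thinning and 0.01 as a mean over cells. The carrier Slc25a20 was the gene at least 20% lower in endothelial cells, from 21 and 32 UMIs (0.638, 0.357 to 1.16). Its log2 ratio was 0.27 after thinning to 1000 UMIs, where 2 of 232 WT and 3 of 269 knockout cells had a UMI. After thinning to 2000 UMIs, 10 of 154 WT cells (6.49%) and 3 of 245 knockout cells (1.22%) had one, with overlapping intervals. Thinning therefore does not settle its direction.

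Of the 4 large classes, endothelial cells had the highest ratio for the summed 10 genes of beta-oxidation. Endothelial cells had 438 and 565 CPM (ratio 1.29, 1.17 to 1.43), with 6 genes higher and 0 lower (19.8% and 35.8% of all genes). Fibroblasts had 438 and 470 CPM (1.07, 1.04 to 1.11) and the satellite cell/myoblast class 545 and 581 CPM (1.07, 1.00 to 1.14). Macrophages had 421 and 404 CPM (0.962, 0.933 to 0.991). The difference between the classes was not tested.

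Among the acyl-CoA dehydrogenases, which open each round for chains of different length, Acadl for long chains had intervals above 1 in all 4 classes. It was at 76.5 and 102 CPM in endothelial cells (ratio 1.34, 1.05 to 1.72), 52.7 and 63.8 CPM in fibroblasts (1.21), 103 and 119 CPM in the satellite cell/myoblast class (1.16) and 63.7 and 69.4 CPM in macrophages (1.09). Acadm for medium chains was at 42.2 CPM in fibroblasts of both libraries (1.000, 0.897 to 1.11) and at 47.0 and 41.2 CPM in macrophages (0.878, 0.800 to 0.963). Acads for short chains was at 51.2 and 52.9 CPM in the satellite cell/myoblast class (1.03). Acadvl for very long chains was at 44.1 and 35.1 CPM in fibroblasts (0.795, 0.710 to 0.890), with a log2 ratio of 0.02 after thinning. Exons of Acadvl share 42.9% of their bases with Dvl2 on the opposite strand, and the sources used here do not say if counting used strand.

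Hadha and Hadhb, the alpha and beta subunits of the trifunctional protein that carries out the remaining steps for long chains, start 272 bases apart in the shared upstream region printed above. In endothelial cells Hadha was at 67.8 and 95.4 CPM (ratio 1.41, 1.09 to 1.84) and Hadhb at 54.8 and 70.6 CPM (1.29, 0.966 to 1.74). The endothelial log2 ratios of both changed sign with the setting, as given below. In macrophages Hadha was at 79.0 and 64.9 CPM (0.821, 0.763 to 0.883) and Hadhb at 42.1 and 42.3 CPM (1.01, 0.914 to 1.10), and these intervals did not overlap. In fibroblasts the values were 66.3 and 60.5 CPM for Hadha (0.912, 0.835 to 0.996) and 52.8 and 57.2 CPM for Hadhb (1.08, 0.986 to 1.19). Hadh, the dehydrogenase for shorter hydroxyacyl chains, was at 34.9 and 29.4 CPM in macrophages (0.842, 0.755 to 0.940) and 53.9 and 41.5 CPM in the satellite cell/myoblast class (0.770, 0.624 to 0.953), where its log2 ratio was -0.02 with 1 more marker gene required.

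Of the auxiliary enzymes for unsaturated fatty acids, Decr1 was at least 25% higher in 3 of the 4 large classes and Eci1 in fibroblasts alone. Decr1, the dienoyl-CoA reductase, was at 17.4 and 34.6 CPM in endothelial cells (ratio 1.99, 1.22 to 3.40), 33.3 and 45.5 CPM in fibroblasts (1.37, 1.22 to 1.53), 16.8 and 21.7 CPM in macrophages (1.30, 1.12 to 1.49) and 36.9 and 45.1 CPM in the satellite cell/myoblast class (1.22, 0.966 to 1.56). Its endothelial log2 ratio was 0.72 after thinning and 0.74 in cells of 3000 to 10000 UMIs. Eci1, the enoyl-CoA isomerase, was at 22.0 and 33.8 CPM in fibroblasts (1.54, 1.35 to 1.76) and 23.5 and 28.5 CPM in macrophages (1.21, 1.07 to 1.37). In endothelial cells Eci1 was at 39.1 and 40.1 CPM (1.02, 0.718 to 1.48) and in the satellite cell/myoblast class at 49.7 and 56.8 CPM (1.14, 0.931 to 1.41). Acaa2, the mitochondrial thiolase that releases acetyl-CoA, was at 45.0 and 49.6 CPM in fibroblasts (1.10, 0.995 to 1.22) and 46.6 and 46.8 CPM in macrophages (1.00).

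The electron transfer flavoprotein was higher in 3 classes with its interval clear of 1. The sum of Etfa, Etfb and Etfdh was 220 and 298 CPM in the satellite cell/myoblast class (ratio 1.35, 1.23 to 1.49), 209 and 261 CPM in fibroblasts (1.25, 1.19 to 1.30) and 196 and 217 CPM in macrophages (1.11, 1.06 to 1.16). Etfa, the alpha subunit, was at 76.8 and 121 CPM in the satellite cell/myoblast class (1.58, 1.35 to 1.85) and 66.2 and 83.0 CPM in fibroblasts (1.25). Etfb, the beta subunit, was at 127 and 159 CPM and at 130 and 165 CPM in these classes (1.25 and 1.26). Its exons share 53.0% of their bases with Etfbl on the same strand, which had 1 UMI in all kept cells of each library. Etfdh, which passes the electrons to ubiquinone, was at 16.3 and 17.6 CPM in the satellite cell/myoblast class (1.08, 0.752 to 1.58).

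In endothelial cells, several single genes changed direction with the setting. With each cell thinned to 1000 UMIs, the log2 ratio there changed sign for Dld (-0.09), Acads (-0.03), Acadvl (-0.39) and Hadha (-0.21) beside Idh3b and Slc25a20. These thinned values rest on few UMIs, and the change of sign of Slc25a20 was not seen at 2000 UMIs. In cells of 3000 to 10000 UMIs it did so for Hadhb (-0.09) and Etfa (-0.04) beside Mdh1. The median over all 31 genes stayed above 0 in every setting, between 0.16 and 0.48.

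Smaller classes showed both directions. Committed myocytes were at 2719 and 3344 CPM for the sum (ratio 1.23, 1.18 to 1.28), with Mdh2 at 352 and 529 CPM (1.50, 1.35 to 1.67) and Idh3a at 76.8 and 125 CPM (1.63, 1.30 to 2.06). Pericytes and smooth muscle cells were at 2346 and 2753 CPM (1.17, 1.08 to 1.28), with a ratio of 1.05 without cells holding fibre marker UMIs. T cells were at 1475 and 1734 CPM (1.18, 1.04 to 1.33), with a ratio of 0.999 in cells of 3000 to 10000 UMIs. NK cells (1.12, 0.963 to 1.29), monocytes (0.915, 0.826 to 1.01) and neutrophils (0.802, 0.608 to 1.07) had intervals that covered 1, and each had settings on both sides of 1. The monocyte ratio was 1.20 with 1 more marker gene, 1.18 in cells of 3000 to 10000 UMIs, 1.14 without cycling cells and 1.08 after thinning, the neutrophil ratio was 1.05 with barcodes of 2 lineages kept, and the NK cell ratio was 0.988 in cells of 3000 to 10000 UMIs. Muscle fibres were at 3868 and 3384 CPM (0.875, 0.822 to 0.931), with the pyruvate entry genes at 361 and 251 CPM (0.695, 0.557 to 0.865), beta-oxidation at 836 and 710 CPM (0.849) and the flavoprotein genes at 417 and 426 CPM (1.02). Marker genes of fibres themselves were higher in the knockout fibre class, as given above, and the fibre sum had a ratio of 1.02 when barcodes of 2 lineages were kept.

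Depth and the shares of cells with detected cell cycle or cell state genes differed between the libraries as well. Summed levels were higher in deeper cells of the same library, except in the knockout satellite cell/myoblast class. WT endothelial cells of 1000 to 3000 UMIs had 1348 CPM, those of 3000 to 10000 UMIs 1473 CPM and those over 10000 UMIs 1601 CPM. In the knockout satellite cell/myoblast class these bins had 2677, 2461 and 2851 CPM, the first from 11 cells. In cells of 3000 to 10000 UMIs the ratio was 1.19 in endothelial cells (1.08 to 1.30) and in the satellite cell/myoblast class (1.14 to 1.24), 1.09 in fibroblasts (1.06 to 1.12) and 0.993 in macrophages (0.971 to 1.01). In cells of 1000 to 3000 UMIs it was 1.14 in endothelial cells (0.919 to 1.40), 1.47 in the satellite cell/myoblast class (1.12 to 1.89), 0.985 in fibroblasts (0.856 to 1.13) and 0.936 in macrophages (0.870 to 1.01). In cells over 10000 UMIs it was 1.19, 1.25, 1.19 and 0.998 in these classes. Cells with at least 2 of 5 cell cycle genes made up 8.33% of WT and 20.4% of knockout endothelial cells, 9.43% and 33% of the satellite cell/myoblast class, 4.22% and 13.4% of fibroblasts and 9.25% and 12.3% of macrophages. Among cells below that number, called not cycling here, the ratio was 1.19, 1.23, 1.14 and 1.01 in these classes. Cell cycle genes were counted as detected in unthinned cells, which were deeper in the knockout library. No thinned share was made, so depth and cycling cannot be told apart in these shares. The mitochondrially encoded share of UMIs was higher in the knockout library in all 4, for example 1.65% and 2.31% in the satellite cell/myoblast class. With mitochondrial, haemoglobin and ribosomal genes out of the total, the ratio was 1.27 in endothelial cells and 1.26 in the satellite cell/myoblast class. It was then 1.21 in fibroblasts and 1.03 in macrophages. The part of the mitochondrial share alone was not tested.

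Shares of fibroblasts and macrophages with detected state genes also differed, counted in unthinned cells of unequal depth. Fibroblasts with at least 2 of Tnc, Cthrc1 and Postn, genes of activated matrix-building cells, were 38.4% of WT and 64.6% of knockout fibroblasts, and the summed ratio among them was 1.21 (1.18 to 1.23). Among those with at least 2 of Pi16, Dpp4 and Cd55, which mark a universal adventitial state, it was 1.06 (1.02 to 1.11). Macrophages with at least 2 of Cd163, Fcna and Lyve1, genes of resident macrophages, were 12.6% of WT and 1.67% of knockout macrophages. They had 1714 and 1745 CPM (1.02, 0.933 to 1.11), and the remaining macrophages 1428 and 1507 CPM (1.05, 1.04 to 1.07). RNA of muscle fibres was present in every class: 7 of the 8 fibre markers were detected in endothelial cells of both libraries, with Myh1 at 0, and they summed to 146 and 65.5 CPM. All 8 were detected in the other large classes, with 135 and 78.9 CPM in fibroblasts, 227 and 226 CPM in macrophages and 258 and 211 CPM in the satellite cell/myoblast class. In endothelial cells without any UMI of these markers the summed ratio was 1.24.

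**Figure D4:**
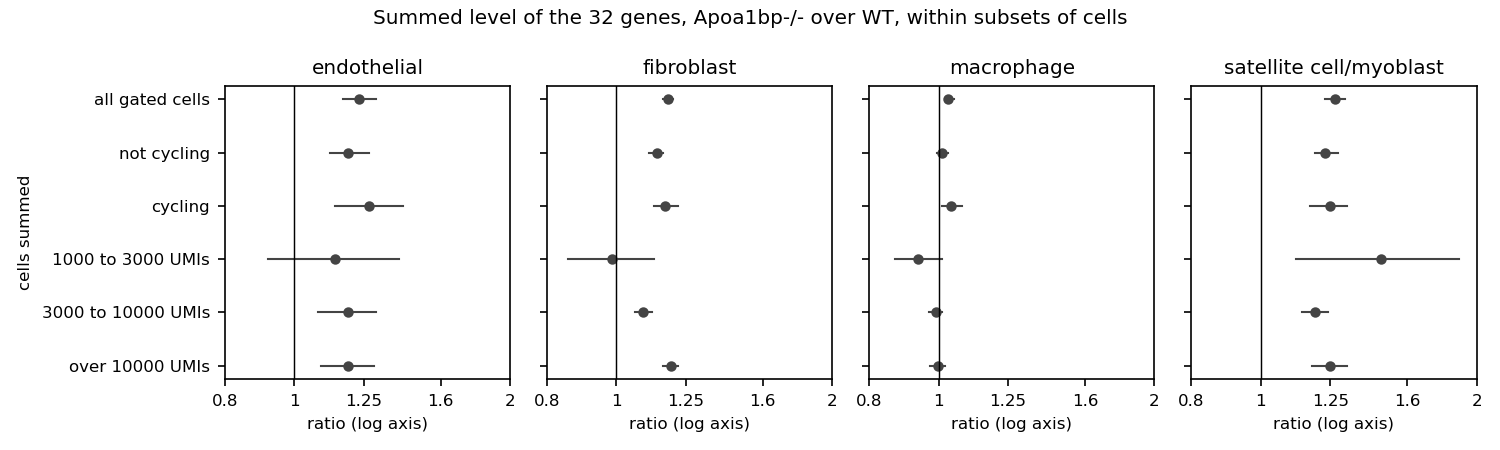
Ratio of the summed level of the 32 genes, knockout over WT (log axis), with its 95% interval, for all cells of the 4 large classes and for cells split by cell cycle genes and by UMIs per cell. In cells of 3000 to 10000 UMIs the ratio is 1.19 in endothelial cells and the satellite cell/myoblast class, 1.09 in fibroblasts and 0.993 in macrophages, and in cells of 1000 to 3000 UMIs it is below 1 in fibroblasts (0.985) and macrophages (0.936).

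The rest of the pathway was followed in 69 other genes. In endothelial cells 22 of 52 measured were higher and 12 lower (19.8% and 35.8% of all genes), with a median log2 ratio of 0.23. In the satellite cell/myoblast class 14 of 53 were higher and 10 lower (21.3% and 28.2%), with a median of 0.07. In fibroblasts 10 of 52 were higher and 14 lower (17.7% and 30.9%), with a median of -0.09. In macrophages 5 of 51 were higher and 10 lower (10.3% and 29.3%), with a median of -0.13. The share of higher genes was thus near the background in fibroblasts and macrophages, and not far above it in the satellite cell/myoblast class.

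Among these, Sdhd, a membrane anchor of succinate dehydrogenase, was one of the genes named for the highest ratios in 3 classes, with 61.7 and 117 CPM in the satellite cell/myoblast class (1.90, 1.60 to 2.27), 48.0 and 76.5 CPM in fibroblasts (1.59) and 58.1 and 81.7 CPM in macrophages (1.41). Acat1, the mitochondrial acetoacetyl-CoA thiolase, was at 69.9 and 147 CPM in the satellite cell/myoblast class (2.11, 1.79 to 2.49). Mpc1, a subunit of the mitochondrial pyruvate carrier, was at 164 and 225 CPM in macrophages (1.37, 1.31 to 1.43). Hsd17b10, a dehydrogenase of short branched chains, was at 68.7 and 112 CPM in endothelial cells (1.63, 1.27 to 2.12). Angptl4, a secreted inhibitor of lipoprotein lipase and a PPAR target, was at 15.6 and 36.4 CPM in endothelial cells (2.33, 1.40 to 4.09) and 28.7 and 51.0 CPM in fibroblasts (1.78, 1.59 to 1.99).

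On the lower side, Acly, which splits citrate outside mitochondria for lipid synthesis, was at 101 and 68.5 CPM in endothelial cells (ratio 0.679, 0.536 to 0.863), 91.4 and 58.2 CPM in fibroblasts (0.636) and 49.8 and 31.6 CPM in macrophages (0.634). Idh1, the cytosolic counterpart of Idh2, was at 50.1 and 31.8 CPM in the satellite cell/myoblast class (0.634, 0.506 to 0.798), where Idh2 was higher, and at 106 and 68.3 CPM in macrophages (0.645). Acadsb, which oxidises short branched acyl groups, was at 68.6 and 41.5 CPM in fibroblasts (0.605). Ucp2, a mitochondrial carrier, was at 158 and 111 CPM in endothelial cells (0.704), and Slc27a1, a fatty acid transporter, at 32.2 and 18.3 CPM in the satellite cell/myoblast class (0.568).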

How the data were processed

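Single-cell libraries of digested adductor muscle were analysed, 1 per genotype, grouped by the genotype label. The values deposited by the authors are raw UMI counts, with a row for each gene and a column for each barcode. Per the submitters' processing notes the tool was Cell Ranger 2.1.1, whereas the version per the file headers was 5.0.0, and which is right is unknown. No source used here names the genome build or annotation of the counts. GENCODE and RefSeq tables served only for exon overlaps and upstream sequences.

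Barcodes in which fewer than 200 genes were detected (49 in WT and 31 in the knockout library), those above 10% mitochondrial UMIs (149 and 197) and doublets called by Scrublet in scanpy (1552, or 11.2%, and 649, or 7.08%, with 11.2% and 7.51% expected) were removed, leaving 66423765 and 70823238 UMIs. Cells were gated by markers. The gate limit of 3 or 4 markers, depending on the length of a class's list, was set after numbers of cells per number of markers had been seen. Within a lineage the class with the larger share of markers was taken, and ties (4 and 9 cells) were left out. At the limit lay 51 WT and 18 knockout endothelial cells, 93 and 41 fibroblasts, 574 and 250 macrophages and 207 and 187 cells of the satellite cell/myoblast class. UMIs were summed per library and class, with exact Poisson intervals for CPM, exact conditional intervals for ratios and Clopper-Pearson intervals for shares. Log2 ratios used a prior count of 0.5. Summing and interval code was tested on simulated data.

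The 32 genes, the markers and the other lists were chosen with earlier results of these data known. All 32 could be named. Of the 69 other genes, the 2 highest and 2 lowest per class by the interval bound nearest 1 were named, at 20 CPM or more in either library. Alternatives covered filters, gates, scaling, thinning and level limits, and 5 were added after the data were seen (barcodes of 2 lineages, a window of depth, cycling cells and 2 cell states). Python 3.11.15, scanpy 1.11.5, numpy 2.4.6, scipy 1.17.1, pandas 2.3.3 and matplotlib 3.10.9 were used.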

Additional observations from a re-analysis of the deposited data

Results flagged for a closer look

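The summed level of the 32 genes was higher in the knockout library in 7 classes, with ratios of 1.23 in endothelial cells, 1.18 in fibroblasts, 1.03 in macrophages, 1.18 in T cells, 1.27 in the satellite cell/myoblast class, 1.23 in committed myocytes and 1.17 in pericytes and smooth muscle cells, each with an interval above 1. In muscle fibres it was lower, with a ratio of 0.875 and an interval below 1. These opposite directions between cell types drew attention. With 1 library per genotype the difference between the classes was not tested. The fibre ratio was 0.977 with 1 more marker gene required and 1.02 with barcodes of 2 lineages kept. The macrophage ratio was 0.986 after thinning, and the T cell ratio was 0.999 in cells of 3000 to 10000 UMIs. The ratio of pericytes and smooth muscle cells was 1.05 without cells holding fibre marker UMIs.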

How the results depend on the processing

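Of 194 counts and medians recomputed under the alternative settings, 164 stayed within set limits, 30 moved and 0 reversed. The limits were 1.5 times for a count and, for a median, the 95% interval of the main median from the order of its genes. Counts within that limit still changed: genes higher in endothelial cells went from 16 to 12 after thinning, where 31.3% of all genes were higher. Medians ranged from 0.16 to 0.48 in endothelial cells, 0.07 to 0.21 in fibroblasts, -0.03 to 0.11 in macrophages and 0.13 to 0.26 in the satellite cell/myoblast class. Each count that moved follows, with the share of all genes in parentheses. Genes lower in endothelial cells (1 of 31) numbered 2 with 1 more marker gene (34.0%), 6 after thinning (39.9%), 4 without cells holding fibre marker UMIs (36.8%), 0 at 20 CPM (32.4%), 0 with barcodes of 2 lineages (34.5%), 2 in cells of 3000 to 10000 UMIs (32.7%) and 3 without cycling cells (36.6%). Genes lower in fibroblasts (2) numbered 1 with doublets kept (30.8%), with ribosomal, mitochondrial and haemoglobin genes out of the total (27.9%), with ratios divided by the median ratio (24.1%), with limits of 50% and 33% (13.9%), without cycling cells (27.0%) and without the Pi16 set (31.8%). In macrophages, lower genes (3) numbered 5 as a mean over cells (29.2%), 8 after thinning (31.5%) and 0 with limits of 50% and 33% (10.1%). Higher genes there (2) numbered 4 after thinning (15.6%), 9 with ratios divided by the median ratio (16.4%), 6 without fibre marker UMIs (13.5%), 0 with limits of 50% and 33% (2.72%) and 1 without cycling cells (10.2%). In the satellite cell/myoblast class lower genes (3) numbered 1 with 1 more marker gene (26.4%) or with barcodes of 2 lineages (25.8%), 5 as a mean over cells (32.3%), without fibre marker UMIs (31.4%) or in cells of 3000 to 10000 UMIs (29.0%), and 0 with limits of 50% and 33% (13.5%). With those limits, higher genes numbered 5 in endothelial cells (9.40%), 3 in fibroblasts (7.58%) and 6 in the satellite cell/myoblast class (9.78%). Of 614 values for single genes, 558 kept their direction and lay within the 95% interval of the main ratio, 45 lay outside it and 11 reversed. That interval is wide where counts are low, so a value inside it can still differ: 16 values changed by more than 1.5 times, 15 of them in endothelial cells, and 3 of the 16 lay inside the interval. Of 46 results for single genes, 35 never reversed. Log2 ratios that reversed after thinning were those of Dld (-0.09), Idh3b (-0.21), Slc25a20 (0.27), Acads (-0.03), Acadvl (-0.39) and Hadha (-0.21) in endothelial cells and Acadvl (0.02) in fibroblasts. In cells of 3000 to 10000 UMIs those of Mdh1 (-0.06), Hadhb (-0.09) and Etfa (-0.04) in endothelial cells and Suclg1 (-0.01) in fibroblasts reversed. The cause was not tested. No paired analysis was possible because each genotype has 1 library, and for the same reason no replicate could be left out. The endothelial values rest on 1720 WT UMIs for all 32 genes together.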

Other observations

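Barcodes outside the classes also held the 32 genes. The 1747 WT and 1368 knockout barcodes that passed for 2 lineages had summed levels of 1687 and 1930 CPM, with fibre markers at 2219 and 1448 CPM. The 1212 and 841 barcodes that passed for no class had 1668 and 2133 CPM, with fibre markers at 286 and 194 CPM.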
